A study of Mus musculus with 6 samples.

Results

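The genes described here are the sensors of the unfolded protein response and the ATF4-CHOP branch below them, 10 genes in all: the sensors Ern1, Atf6 and Eif2ak3, the transcription factors Xbp1, Atf4, Ddit3 and Atf3, and Trib3, Chac1 and Ppp1r15a. They were chosen by symbol, as every non-control probe whose gene name was one of these symbols, which gave 14 of the 55681 probes on the array. After a filter on dim probes 11 of the 14 probes were kept, and they represented 10 of 10 genes among the 20975 genes kept. RNA of brain synaptosomes, the resealed nerve terminals that form when brain tissue is homogenised, was measured on 6 one-colour arrays, with 3 samples of knock-in (KI) mice and 3 of wild-type (WT) mice.

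The series concerns FMR1 and a late-onset tremor and ataxia syndrome of the fragile X family, and its design names the comparison as knock-in against wild type. Sample names call 3 samples KI, while their genotype field reads knock-out, and they are called KI here. The inserted allele, strain, age and sex are not given in the sources used here, nor is it said whether each sample came from a separate animal. The p-values therefore rest on the scatter among these samples, some or all of which may be technical. The amount of RNA labelled is given as 0.2 µg for 5 samples and as 0.0 µg for KI replicate 1. Slide 1 held the 3 KI arrays and WT replicate 3, and slide 2 held WT replicates 1 and 2. A contrast of the KI arrays with the WT arrays of slide 2 is thus also a contrast between slides.

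The unfolded protein response is set off when misfolded proteins accumulate in the endoplasmic reticulum (ER). IRE1 (Ern1) splices the Xbp1 transcript, ATF6 is cut in the Golgi to release a transcription factor, and PERK (Eif2ak3) phosphorylates the translation factor eIF2, which lowers protein synthesis but favours translation of ATF4. ATF4 induces genes of amino acid supply and, when stress lasts, CHOP (Ddit3), while GADD34 (Ppp1r15a) guides dephosphorylation of eIF2 and so closes the loop. Splicing of Xbp1, cleavage of ATF6 and phosphorylation of PERK or eIF2 change proteins or a short stretch of a transcript, and these probes do not measure them.

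Sequences of the start-site regions show which of the genes carry the letters that ATF4 and its partners are known to read. RefSeq promoter windows (GRCm38.p6, 250 bases before to 50 after each start) were at hand for 9 of the 10 genes. Searched on both strands, the C/EBP-ATF response element TGATGNAA stood in 3 of these 9 windows (Trib3, Chac1 and Atf3), against 3.97% of 32851 promoter windows. The cyclic AMP response element TNACGTCA stood in 2 of 9 (Atf3 and Ppp1r15a), against 2.93%. The AP-1 element TGANTCA stood in 2 of 9 (Eif2ak3 and Ddit3), against 7.81%. No match in the 9 windows overlapped another. A match describes letters only. The stretches around the matches are printed on the strand of the gene, with the motif in capitals, and show Atf3 with both an ATF4-type and a cyclic AMP-type match and Ddit3 with an AP-1 match.
Atf3, C/EBP-ATF element, chr1:191183425-191183454, minus strand: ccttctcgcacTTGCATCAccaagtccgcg
Atf3, cyclic AMP response element, chr1:191183325-191183354, minus strand: tattaatagcaTTACGTCAgcctgggattg
Chac1, C/EBP-ATF element, chr2:119351038-119351067, plus strand: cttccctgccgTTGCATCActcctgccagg
Ppp1r15a, cyclic AMP response element, chr7:45526262-45526291, minus strand: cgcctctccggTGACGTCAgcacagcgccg
Ddit3, AP-1 element, chr10:127290543-127290568, plus strand: cgcgcgcaTGACTCActcacctcctc

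Scanner measures were alike apart from brightness and the number of outlier-marked spots, both of which differed by slide. Marked as outliers were 148, 148 and 118 non-control spots on KI replicates 1 to 3 and 145 on WT replicate 3. On WT replicates 1 and 2 they were 97 and 105. The array weights of limma, which are lower for arrays further from their group, were 0.99, 3.56 and 1.20 in KI replicates 1 to 3. They were 0.66, 0.31 and 1.17 in WT replicates 1 to 3. The share of non-control spots called well above background was 52.9% to 55.7%, 0 spots were saturated, and the 75th percentile of the processed signal was 883 to 910 on KI arrays and 823 on WT replicate 3, but 578 and 580 on WT replicates 1 and 2. Values below are log2 signals relative to that percentile of the same array, and the processed signal itself is background-subtracted fluorescence in arbitrary units. Fmr1, the gene named by the series, read 2.08, 2.24 and 2.27 in KI and 1.42, 1.33 and 1.37 in WT, 1.77-fold higher in KI (log2 difference 0.82, SE 0.10, limma adjusted p = 0.198). All 7 markers of nerve terminals and synapses were kept. Summed, they stood at 440 to 508 times the 75th percentile on KI arrays and at 466 to 595 times on WT arrays. Of markers of other cells, 5 of 5 of astrocytes, 5 of 5 of oligodendrocytes, 7 of 7 of microglia and 4 of 5 of endothelium were kept as well, so the RNA was not of neurons alone. In such bulk RNA, fewer cells or terminals of a type and less RNA in each cannot be told apart.

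None of the 10 genes passed the test. Across all genes limma called 2 of 20975 at an adjusted p under 0.05, or 0.00954%, and 0 of the 10 were among them. At an unadjusted p under 0.05, 2 of the 10 were higher in KI (Ddit3 and Atf3), against 4.45% of all genes, and 0 of the 10 were lower, against 6.40%. The 3 KI arrays lay wholly above the 3 WT arrays for 3 of the 10, Xbp1, Ddit3 and Atf3, against 7.87% of all genes, and wholly below for 0, against 12.5%. By sign 6 of the 10 were higher, against 40.9% of all genes. The median of the 10 differences was 0.18, against a median of -0.05 over all genes, and it was 0.088 without KI replicate 1 and WT replicate 1 and 0.11 without WT replicate 2.

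**Figure D1:**
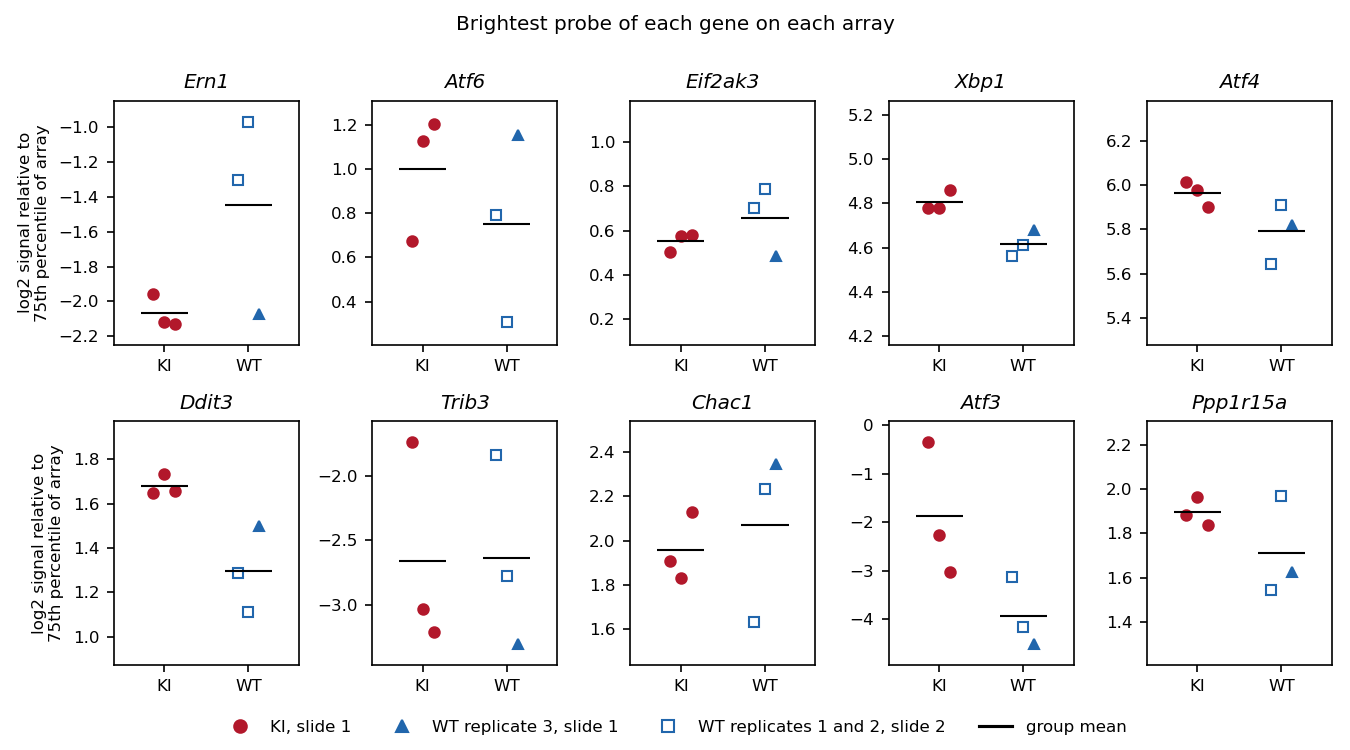
Log2 signal relative to the 75th percentile of the array (vertical axis) for the 10 genes, with KI left of WT, a point for each array and a bar for each group mean; open squares are the WT arrays of slide 2 and the triangle is WT replicate 3. Xbp1, Ddit3 and Atf3 are the genes whose KI points all lie above their WT points, and Trib3 shows 1 high array in each group.

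Among the sensors, Ern1, which encodes the kinase and nuclease IRE1, had the widest spread in WT. Its kept probe, at bases 106258948 to 106259007 of chromosome 11 (mouse build mm9, minus strand), gave processed signals of 228, 209 and 208 in KI replicates 1 to 3 and 234, 296 and 196 in WT replicates 1 to 3. Relative to the 75th percentile these were -1.96, -2.12 and -2.13 in KI and -1.31, -0.97 and -2.07 in WT. The KI arrays lay together with WT replicate 3, their neighbour on slide 1, and only the WT arrays of slide 2 lay above them. Ern1 read 0.652-fold of WT (log2 difference -0.62, SE 0.27, limma adjusted p = 0.471, 95% interval -1.28 to 0.04). Against WT replicate 3 alone, as with slide as a block, the difference was 0.0045, and against the mean of the 2 WT arrays of slide 2 it was -0.93. The other 3 Ern1 probes, which lie further towards the start of the gene, were well above background on 0 of 6 arrays.

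Atf6 encodes a membrane-bound transcription factor that activates ER chaperone genes once cut. Its probe, at bases 172635311 to 172635370 of chromosome 1 (mm9, minus strand), read 0.67, 1.13 and 1.20 in KI and 0.79, 0.31 and 1.15 in WT. The groups overlapped, with KI replicate 1 below 2 WT arrays. The difference was 0.25 (SE 0.25, limma adjusted p = 0.670, 95% interval -0.34 to 0.84). Against WT replicate 3 alone the sign turned, to -0.15. Without WT replicate 2 the difference was 0.029, without WT replicate 3 it was 0.45, and without KI replicate 1 it was 0.41.

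Eif2ak3, which encodes PERK, varied least of the sensors. Its probe, at bases 70855152 to 70855211 of chromosome 6 (mm9, plus strand), read 0.50, 0.58 and 0.58 in KI and 0.70, 0.79 and 0.48 in WT. The KI arrays lay between WT replicate 3, just below them, and the WT arrays of slide 2, above them. The difference was -0.11 (SE 0.11, limma adjusted p = 0.690), and its 95% interval of -0.38 to 0.17 leaves room for a small change in either direction. Against WT replicate 3 alone it was 0.068. Without WT replicate 2 it was -0.042, and without WT replicate 3 it was -0.19.

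Xbp1, whose spliced transcript encodes the factor that expands the ER, was bright on every array. Its probe, at bases 5425816 to 5425875 of chromosome 11 (mm9, plus strand), gave processed signals of 24289, 24966 and 26447 in KI and 13677, 14197 and 21073 in WT. Relative to the 75th percentile it read 4.78, 4.78 and 4.86 in KI and 4.56, 4.61 and 4.68 in WT, so each KI array lay above each WT array by a narrow margin. The level was 4.81 ± 0.05 in KI and 4.62 ± 0.06 in WT (SD, n = 3 each), or 1.14-fold (log2 difference 0.19, SE 0.09, limma adjusted p = 0.492, 95% interval -0.03 to 0.41). The exact two-sided permutation p over the 6 arrays was 0.1, the smallest that 3 against 3 allow. The difference was 0.13 against WT replicate 3 and 0.22 against the WT arrays of slide 2, both in the same direction. The probe starts at base 1740 of the transcript and does not tell the spliced from the unspliced form.

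Atf4, the transcription factor whose translation PERK favours, was measured by a pair of kept probes. The brighter one, at bases 80087902 to 80087961 of chromosome 15 (mm9, plus strand), gave processed signals of 57068, 57278 and 54348 in KI and 28957, 34938 and 46531 in WT, or 6.01, 5.98 and 5.90 in KI and 5.65, 5.91 and 5.82 in WT relative to the 75th percentile. Here WT replicate 2 exceeded KI replicate 3, so the groups overlapped slightly. The difference was 0.17 (SE 0.11, limma adjusted p = 0.547, 95% interval -0.09 to 0.43). Without KI replicate 1 and WT replicate 1 it was 0.072, and without WT replicate 1 it was 0.097. It was larger without WT replicate 2 (0.23), with quantile normalization (0.28, limma adjusted p = 0.428) and with the authors' value table (0.27, limma adjusted p = 0.440). The dimmer probe, at bases 80086639 to 80086698, read 0.69, 0.64 and 0.55 in KI and 0.36, -0.73 and 0.30 in WT. It separated the groups, with WT replicate 2 far below the other WT arrays, and differed by 0.65 (SE 0.29, limma adjusted p = 0.490 over all kept probes, of which 0.00682% passed the threshold). Both probes were higher in KI on average, and with the mean of all kept probes the gene differed by 0.41 (SE 0.15, limma adjusted p = 0.452).

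Ddit3 encodes CHOP, a factor of the C/EBP family that ATF4 induces and that promotes cell death under lasting ER stress. Its probe spans 304 bases of chromosome 10, from 126732518 to 126732821 (mm9, plus strand), and starts at base 288 of the transcript. Processed signals were 2769, 3026 and 2870 in KI and 1411, 1252 and 2325 in WT. Relative to the 75th percentile these were 1.65, 1.74 and 1.66 in KI and 1.29, 1.11 and 1.50 in WT. Each KI array lay above each WT array, and WT replicate 3, on the slide of the KI arrays, was the WT array closest to them. Ddit3 read 1.68 ± 0.05 in KI and 1.30 ± 0.20 in WT (SD, n = 3 each), or 1.30-fold (log2 difference 0.38, SE 0.13, 95% interval 0.08 to 0.68). The unadjusted limma p was 0.0204 and the adjusted p 0.426, and the exact permutation p was 0.1. With slide as a block, which compares KI with WT replicate 3 alone, the difference was 0.18 (SE 0.15, limma adjusted p = 0.973). Relative to the WT arrays of slide 2 it was 0.48. Slide 1 held 1 WT array, so slide and the scatter of single arrays cannot be told apart here.

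**Figure D2:**
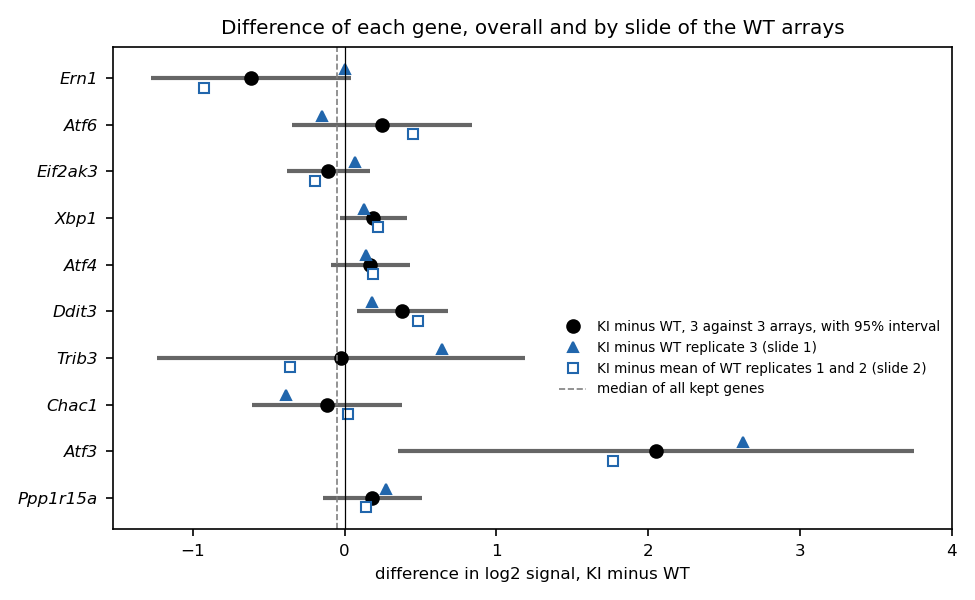
Difference in log2 signal, KI minus WT (horizontal axis), for each of the 10 genes, with the 95% interval of the fit over all 6 arrays and, as separate markers, the KI mean minus WT replicate 3 (slide 1) and the KI mean minus the mean of WT replicates 1 and 2 (slide 2). Atf3 differs by 2.63 and 1.77 against the WT arrays of slides 1 and 2, while Ern1 differs by 0.005 and -0.93.

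Atf3, a stress-induced factor of the ATF/CREB family that neurons also switch on after injury or firing, had the widest difference of the 10. Its probe, at bases 192994547 to 192994606 of chromosome 1 (mm9, minus strand), was well above background on all 6 arrays. It gave processed signals of 689, 190 and 112 in KI and 65.8, 32.4 and 36.2 in WT, or -0.36, -2.26 and -3.02 in KI and -3.14, -4.16 and -4.51 in WT relative to the 75th percentile. The dimmest probes called well above background read -5.07, -4.97 and -5.18 on WT replicates 1 to 3. Atf3 thus read close to that limit in WT replicates 2 and 3, where a log2 difference depends on the background correction. KI replicate 1 stood far above the other arrays, and KI replicate 3 exceeded WT replicate 1 by little. Atf3 read -1.88 ± 1.37 in KI and -3.93 ± 0.71 in WT (SD, n = 3 each), or 4.15-fold (log2 difference 2.05, SE 0.71, 95% interval 0.36 to 3.75). That difference lay at percentile 99.9 of the differences of all genes. The unadjusted limma p was 0.0249 and the adjusted p 0.433, and the exact permutation p was 0.1. Without KI replicate 1 the difference was 1.29 (SE 0.45), and with normexp background correction it was 1.11 (SE 0.47). Against WT replicate 3 alone it was 2.63 (SE 1.03).

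Trib3, a pseudokinase that ATF4 and CHOP induce and that restrains ATF4, had no difference of means beyond its spread. Its probe, at bases 152163161 to 152163220 of chromosome 2 (mm9, minus strand), read -1.74, -3.04 and -3.21 in KI and -1.84, -2.77 and -3.30 in WT. Replicate 1 was the high array in both groups, by about as much in each. The difference was -0.02 (SE 0.50, limma adjusted p = 0.986), and its 95% interval of -1.24 to 1.19 is wide. Its C/EBP-ATF match lies just after the start site, in letters that are not printed here.

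Chac1, an enzyme that degrades glutathione and a target of ATF4, also overlapped between groups. Its probe, at bases 119179990 to 119180049 of chromosome 2 (mm9, plus strand), read 1.91, 1.83 and 2.13 in KI and 1.63, 2.23 and 2.34 in WT. WT replicate 1 was lowest and WT replicate 3 highest of the 6. The difference was -0.11 (SE 0.21, limma adjusted p = 0.814, 95% interval -0.61 to 0.38), and against WT replicate 3 alone it was -0.39. Chac1 and Atf3 share the letters TTGCATCA of the C/EBP-ATF element printed above, and their differences were -0.11 and 2.05.

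Ppp1r15a, which encodes GADD34, the stress-induced partner of the eIF2 phosphatase, gave 1.88, 1.96 and 1.84 in KI and 1.54, 1.97 and 1.62 in WT. Its probe lies at bases 52778320 to 52778379 of chromosome 7 (mm9, minus strand). WT replicate 2 read as high as the highest KI array, and the other 2 WT arrays lay below all KI arrays. The difference was 0.18 (SE 0.14, limma adjusted p = 0.591, 95% interval -0.14 to 0.51), and it was 0.27 against WT replicate 3. Without WT replicate 1 it was 0.099, and without WT replicate 2 it was 0.31 (limma unadjusted p = 0.0170).

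By slide, the direction of the 10 genes was as follows. All 3 KI arrays lay above WT replicate 3 for 7 of the 10, against 26.0% of all genes, and below it for 1 of the 10, Chac1, against 36.4%. They lay above both WT arrays of slide 2 for 3 of the 10, against 13.2% of all genes, and below both for 2, Ern1 and Eif2ak3, against 22.4%. The median difference was 0.14 against WT replicate 3 and 0.16 against the mean of WT replicates 1 and 2. Xbp1, Ddit3 and Atf3 lay above the WT arrays of either slide.

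The other genes of the pathway were described by lists. Of 15 genes of eIF2 kinases, eIF2, eIF2B and its phosphatase, 15 were kept and 0 passed the threshold, with a median difference of 0.058, which was -0.012 without WT replicate 1 and -0.016 without WT replicate 2. At an unadjusted p under 0.05, 1 was higher and 1 lower, against 4.45% and 6.40% of all genes. The eIF2 kinase genes Eif2ak4 (GCN2, amino acid shortage), Eif2ak2 (PKR, double-stranded RNA) and Eif2ak1 (HRI, haem shortage) differed by -0.09 (SE 0.10), 0.20 (SE 0.12) and 0.15 (SE 0.16). Ppp1r15b, the constitutive partner of the phosphatase, differed by 0.27 (SE 0.18). The KI arrays lay wholly above WT for 3 of the 15 and wholly below for 2, against 7.87% and 12.5% of all genes.

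Genes that ATF4 induces for amino acid supply went both ways. Of 36, 33 were kept and 0 passed the threshold, while Fgf21, Gdf15 and Stc2 were too dim to be kept. The median difference was 0.024, and -0.043 without WT replicate 1, with 18 of 33 higher by sign, against 40.9% of all genes. At an unadjusted p under 0.05, 3 were higher and 1 lower, against 4.45% and 6.40% of all genes. Asns, asparagine synthetase, read 5.25 ± 0.06 in KI and 5.58 ± 0.15 in WT, lower in 3 of 3 KI arrays (log2 difference -0.34, SE 0.11, limma adjusted p = 0.433). Slc7a11, the cystine transporter, read -1.06 ± 0.25 in KI and -1.90 ± 0.73 in WT, higher in 3 of 3 KI arrays (log2 difference 0.85, SE 0.36, limma adjusted p = 0.465). Sesn2, a stress-induced brake on mTORC1, differed by -0.09 (SE 0.16), and Ddit4, another such brake, by 0.40 (SE 0.26), both with overlapping arrays. In all, 5 of the 33 lay wholly above WT and 2 wholly below, against 7.87% and 12.5% of all genes. Without WT replicate 2 the Slc7a11 difference was 0.43.

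**Figure D3:**
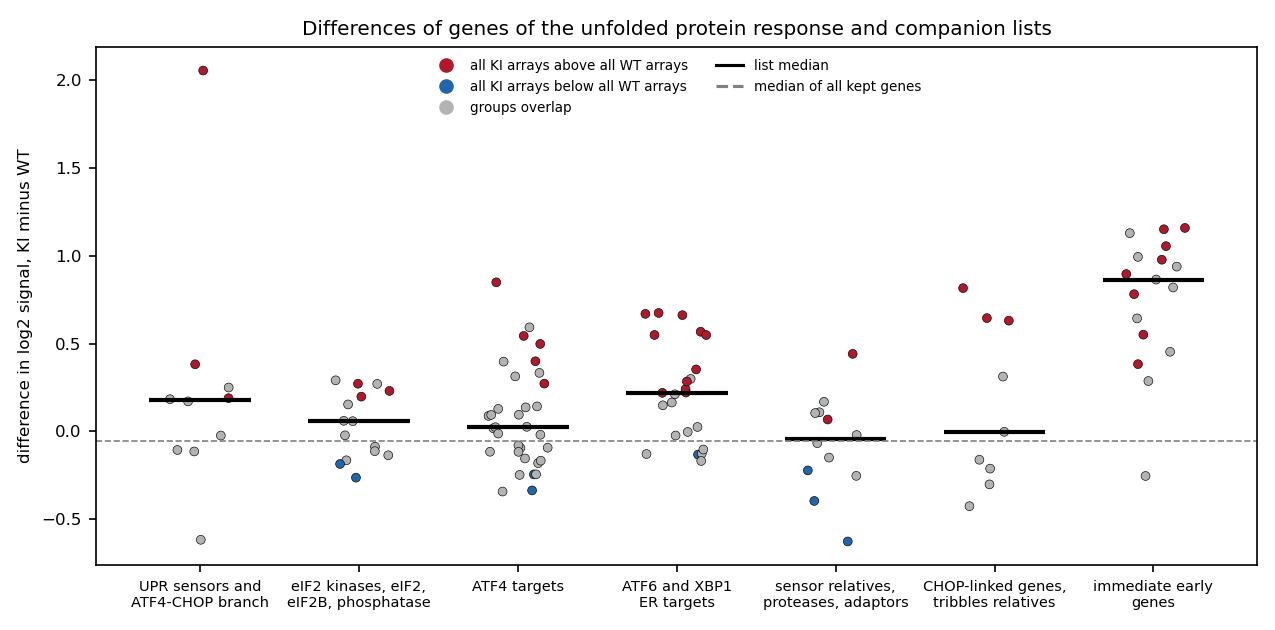
Difference in log2 signal, KI minus WT (vertical axis), for each kept gene of the 10 genes, the 5 pathway lists and the immediate early genes, a point for each gene, red or blue where the KI arrays lay wholly above or below the WT arrays; bars are list medians and the broken line is the median of all genes, -0.05. The ATF6 and XBP1 targets have a median of 0.22 and the immediate early genes one of 0.86, while the ATF4 targets are centred at 0.024.

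Genes of the ER that ATF6 and XBP1 induce were mostly higher in KI, although 0 passed the test. Of 23, 23 were kept and 16 were higher by sign, against 40.9% of all genes, with a median difference of 0.22. Their 3 KI arrays lay wholly above the WT arrays for 11 of 23, against 7.87% of all genes, and wholly below for 1, against 12.5%. At an unadjusted p under 0.05, 9 of 23 were higher, against 4.45% of all genes, and 0 were lower. That count was 6 with slide as a block, 6 without KI replicate 1 and WT replicate 1 together, and 7 to 9 on leaving out one array. The lowest adjusted p in the list was 0.389. Against WT replicate 3 alone, all KI arrays were above for 13 of 23, against 26.0% of all genes, with a median difference of 0.11, and against the WT arrays of slide 2 they were above for 13 of 23, against 13.2%, with a median of 0.26. Without WT replicate 2 the median was 0.12.

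Within that list Hspa5, the main chaperone of the ER and the protein that keeps the sensors inactive, read 5.43, 5.41 and 5.38 in KI and 4.84, 4.80 and 4.88 in WT. The gap between the groups was several times the spread within either. Hspa5 was 1.48-fold higher (log2 difference 0.57, SE 0.09, limma adjusted p = 0.389). Sdf2l1, an ER chaperone partner, was 1.59-fold (log2 difference 0.67, SE 0.15) and Herpud1, of ER-associated degradation, 1.16-fold (0.22, SE 0.11), each with 3 of 3 KI arrays above every WT array. Dnajb9, a co-chaperone that recruits Hspa5 to IRE1, differed by 0.21 (SE 0.14) with overlapping arrays, and by 0.076 without WT replicate 2. Chosen after their values were seen, the disulfide isomerase gene Pdia4 (0.67), Edem1 (0.66), Creld2 (0.55) and the secreted factor gene Manf (0.55) also separated the groups, and the lectin chaperone gene Canx lay wholly below WT at -0.13.

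The ER stress response element (CCAAT, then 9 bases of any kind, then CCACG), on either strand, stood in the windows of 8 of the 20 ER genes that had one, in 0 of 9 windows of the 10 genes, and in 0.119% of all promoter windows. These genes are textbook targets picked for that response, so the count describes the list. The printed pair shows the element, in capitals, at genes whose arrays separated (GRCm38.p6).
Hspa5, chr2:34772020-34772048, plus strand: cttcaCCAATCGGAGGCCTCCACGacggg
Creld2, chr15:88819515-88819543, plus strand, element on the opposite strand: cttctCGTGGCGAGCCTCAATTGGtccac
Among the others with the element were Canx and Syvn1, singled out after their values were seen, which differed by -0.13 each.

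**Figure D4:**
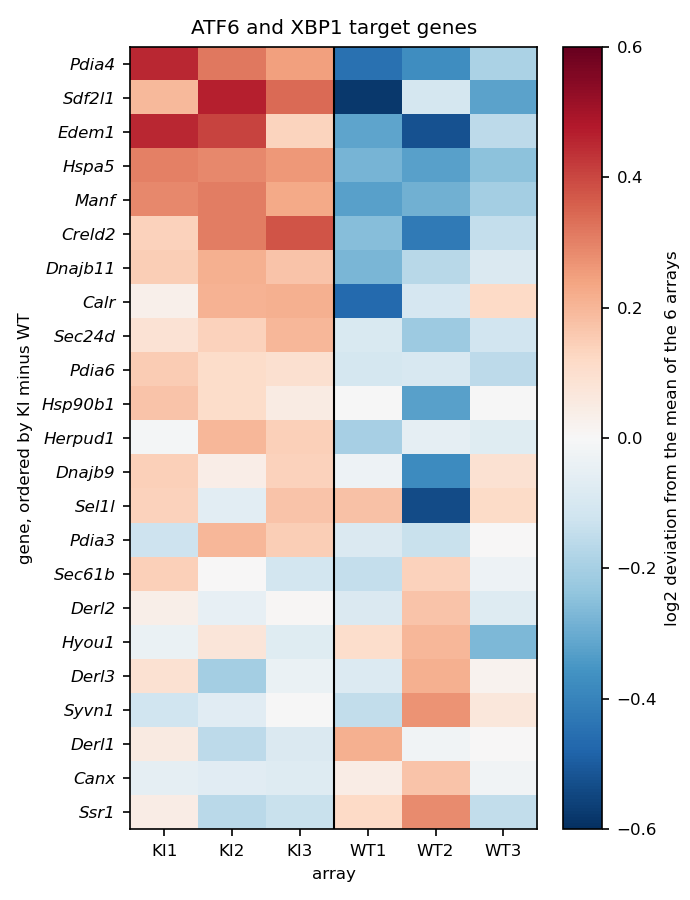
Heat map of the 23 ATF6 and XBP1 target genes (rows, ordered by difference) over the 6 arrays (columns, KI left of WT), coloured by the log2 deviation from the mean of the 6 arrays. Rows from Pdia4 to Herpud1 are largely red on KI arrays and blue on WT arrays, and the lowest rows are not.

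Relatives of the sensors and their proteases showed 0 of 12 genes past the threshold, with a median of -0.044, which was 0.034 without WT replicate 1. At an unadjusted p under 0.05, 1 was higher and 2 lower, against 4.45% and 6.40% of all genes. Atf6b, the paralogue of Atf6, read -0.06, 0.16 and -0.01 in KI and -0.57, -0.56 and -0.11 in WT, above every WT array in 3 of 3 KI arrays but close to WT replicate 3 (log2 difference 0.44, SE 0.16, limma adjusted p = 0.433). Ern2, the IRE1 paralogue of mucosal epithelia, differed by 0.11 (SE 0.25), and the genes of the proteases that cut ATF6, Mbtps1 and Mbtps2, by -0.07 (SE 0.11) and -0.02 (SE 0.25).

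Genes tied to CHOP in cell death and redox balance, with the tribbles relatives, had 9 of 10 kept and 0 past the threshold. Their median was -0.0026, and 3 were higher at an unadjusted p under 0.05, against 4.45% of all genes. The 3 were Ero1a and, named after their values were seen, the tribbles relatives Trib1 and Trib2. The median was 0.15 with no filter on dim probes or with the filter over all 6 arrays, and 0.070 without WT replicate 3. Ero1a, the ER oxidase that CHOP induces, read -1.09, -0.91 and -1.15 in KI and -1.65, -2.52 and -1.42 in WT, higher in 3 of 3 KI arrays (log2 difference 0.82, SE 0.28, limma adjusted p = 0.433). Without WT replicate 2 it was 0.49. The death genes Bbc3, Tnfrsf10b and Pmaip1 differed by -0.16 (SE 0.21), -0.30 (SE 0.15) and -0.43 (SE 0.26), all with overlapping arrays. Bcl2l11 was well above background on 0 arrays.

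Other gene lists also differed among the arrays. Immediate early genes, which neuronal firing induces and among which Atf3 is often counted, were higher in 16 of 17 cases, against 40.9% of all genes, with a median of 0.86. Their KI arrays lay wholly above WT for 8 of 17, against 7.87% of all genes, and 0 passed the threshold. Fosb differed by 0.98 (SE 0.23) and Egr1 by 0.55 (SE 0.18) without overlap, and Fos by 0.94 (SE 0.32) and Junb by 0.82 (SE 0.28) with it. Relative to the mean of the 6 arrays, the median of the list was 0.58, 0.61 and 0.02 in KI and -0.19, -0.26 and -0.73 in WT, with KI replicate 3 the lowest of the KI arrays, as it was for Atf3. The part of this list in the Atf3 difference was not tested.

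Striatal neuron markers, of which 6 of 6 were kept, summed to 138, 60.9 and 29.7 times the 75th percentile in KI and to 91.5, 26.3 and 28.2 times in WT, so that replicate 1 was the high array of both groups. Choroid plexus markers, 5 of 6 kept, summed to 1.61, 1.15 and 0.319 times in KI and to 1.66, 0.319 and 0.263 times in WT. By sign 6 of 6 striatal and 4 of 5 choroid plexus markers were higher in KI, against 40.9% of all genes. Their median differences were 0.83 and 0.80, with overlapping arrays for each marker. Trib3, as the striatal markers, was high in replicate 1 of both groups. Atf3 too was highest in replicate 1 of each group, at -0.36 in KI and -3.14 in WT. Without KI replicate 1 and WT replicate 1 together, an alternative chosen after seeing the data, Atf3 differed by 1.69 (SE 0.30, limma adjusted p = 0.631) and Ddit3 by 0.39 (SE 0.18, limma adjusted p = 0.631). On the arrays left, striatal markers still summed to 60.9 and 29.7 times in KI and to 26.3 and 28.2 times in WT. Choroid plexus markers summed to 1.15 and 0.319 times in KI and to 0.319 and 0.263 times in WT. This alternative thus does not even out the markers, and their part in the differences of Atf3 and Trib3 was not tested. The ER genes followed another order, with list medians of 0.14, 0.11 and 0.14 in KI and -0.11, -0.10 and -0.08 in WT.

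Markers of other cells did not share one direction. Astrocyte markers were higher in 2 of 5 cases, with a median difference of -0.12 and summed levels of 56.0 to 61.9 times the 75th percentile in KI and 60.1 to 71.0 times in WT. Gfap, singled out after its value was seen, was the astrocyte gene wholly above WT (0.75, SE 0.26). Oligodendrocyte markers were higher in 5 of 5 cases, against 40.9% of all genes, with a median of 0.33, overlapping arrays for each, and summed levels of 171 to 235 times in KI and 143 to 210 times in WT. Microglia markers were higher in 5 of 7 cases, with a median of 0.17, 2 wholly above and 1 wholly below WT (7.87% and 12.5% of all genes), and summed levels of 101 to 110 times in KI and 98.97 to 106 times in WT. The gene wholly below was Cx3cr1 (-0.26), named after its values were seen. Its other kept, dimmer probe lay wholly above WT (0.47). Endothelial markers were higher in 1 of 4 cases, with a median of -0.09 and summed levels of 1.07 to 1.76 times in KI and 1.67 to 2.36 times in WT, and Cldn5 was below WT on 3 of 3 KI arrays (-0.99, SE 0.30), a gene chosen with its values in view. Both kept blood cell markers, Hba-a1 and Alas2, lay wholly above WT, with a median of 0.58 and summed levels of 103, 73.2 and 57.8 times in KI and 45.2, 52.6 and 52.0 times in WT, highest in KI replicate 1 as was Atf3. The part of these markers in the differences of the 10 genes was not tested.

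**Figure D5:**
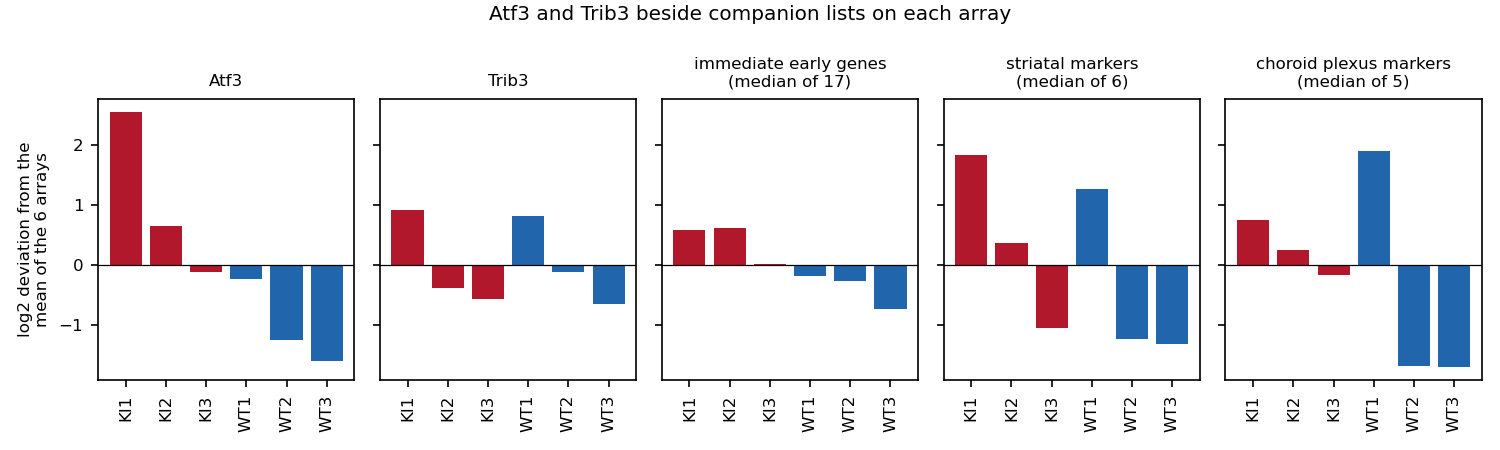
Log2 deviation from the mean of the 6 arrays (vertical axis) on each array, KI arrays left of WT arrays, a bar for each array, for Atf3, Trib3 and the medians of the immediate early genes (17), striatal markers (6) and choroid plexus markers (5). Trib3, Atf3 and the striatal markers are highest on replicate 1 within each group, at 1.83 and 1.26 for the striatal markers.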

How the data were processed

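RNA of 6 samples was measured on one array each. Per the file headers, Agilent Feature Extraction (version 10.7.3.1) read the spots, and the deposited processed intensity is background-subtracted and not normalized between arrays. The authors also deposited a log2 value table. Its columns had medians of 6.55 to 6.56 and ranked spots as the raw median signals did (Spearman 1), and no source used here tells how they were brought to one scale. Its use was as an alternative.

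Control spots were left out, and outlier-marked spots too unless all spots of a probe were marked. Log2 processed intensities were set relative to the 75th percentile of each array. Probes well above background on at least 3 of 6 arrays were kept (29318), and the brightest kept probe stood for its gene (20975 genes). Names came from RefSeq (GRCm38.p6), with 27235 probes matched by accession, 3581 by current and 565 by older symbols, and 24300 left as in the file. The comparison of KI with WT used limma (version 3.58.1, R 4.3.3; lmFit and two-sided eBayes tests), p-values adjusted by Benjamini-Hochberg across all genes and a threshold of 0.05. The fit was tested on simulated data, but no outcome is given here, and the results do not rest on that test. Array number limits the precision.

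The genes and lists were chosen with earlier results of these data known. Named are the 10 genes, Fmr1, the first 4 kept genes of each pathway list and of the immediate early genes, and the 5 genes most correlated with Ddit3, and others are said to be chosen after their values were seen. The alternatives were slide as a fixed or random block, the replicate number as a block, normexp with an offset of 50, quantile normalization, another scaling, the value table, other filters, probe rules, moderation, array weights and leaving out arrays.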

Additional observations from a re-analysis of the deposited data

How the results depend on the processing

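The number of arrays and the slide layout set the limits: 3 against 3 arrays allow no exact p under 0.1, and slide 2 held WT arrays only, so a slide block compares KI with WT replicate 3 alone. Of the 10 genes 0 passed the adjusted threshold under any of 19 alternatives. Of all genes, 2 passed, against 7 with slide as a fixed block, 5 with slide as a random block (correlation -0.016), 1 with normexp, 5 with scaling by the median of detected probes, 0 with the authors' value table, 0 with no filter on dim probes, 0 when each of the 6 arrays had to be well above background, 5 with the mean of all kept probes, 6 with an intensity trend and robust moderation, 0 without KI1 and WT1 together, and 0 to 3 on leaving out one array. Whether the shared replicate numbers pair the samples cannot be told from these arrays. Same-numbered KI and WT arrays deviated from their group means with correlations of 0.40, -0.02 and 0.25 across genes. KI replicates 1 and 3 each correlated best with the WT array of the same number, while KI replicate 2 correlated best with WT replicate 3 (0.068). With the replicate block 0 genes passed, and the SE of the Atf3 difference was 0.27, against 0.71 without it (limma adjusted p = 0.432 and 0.433). The median of the 10 differences lay between 0.11 and 0.18 on leaving out one array. Genes of the 10 higher at an unadjusted p under 0.05 numbered 2, against 1 with slide as a fixed block, 4 with quantile normalization, 4 with the value table, 1 without KI1 and WT1 together, and 1 to 2 on leaving out one array (1 without KI replicate 2 or WT replicate 3). Leaving out WT replicate 2 lost Atf3 from that count and added Ppp1r15a, with unadjusted limma p-values of 0.0778 and 0.0170. Lower ones numbered 0, against 1 with the replicate block (Ern1), 1 with normexp (Ern1) and 0 to 1 on leaving out one array. Genes wholly above WT numbered 3, and 3 to 5 on leaving out one array (5 without WT replicate 2). With the mean of all kept probes Atf4 lay wholly above WT as well. Genes wholly below numbered 0, against 2 without KI1 and WT1 together and 0 to 2 on leaving out one array. Counts of separated arrays are fixed under the blocks, weights and moderation, which use the same array values. The sign turned for Atf6 (-0.15), Eif2ak3 (0.068), Ern1 (0.0045) and Trib3 (0.64) with slide as a block, for Chac1 without WT replicate 3 (0.023), and for Trib3 with quantile normalization (0.013), the value table (0.014) and without KI replicate 2 (0.16), KI replicate 3 (0.25) or WT replicate 1 (0.38). On leaving out one array, Chac1 ran from -0.33 to 0.023 and Trib3 from -0.49 to 0.38. These 5 genes were not called, and the cause was not tested. Xbp1, Atf4, Ddit3, Atf3 and Ppp1r15a kept their sign under the 19 alternatives. The median of all genes lay between -0.13 (no filter) and -0.010 (value table).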

Other observations

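Values outside the rule for named genes, singled out after they were seen, came from relatives of the pathway. Trib1 and Trib2, the pseudokinase relatives of Trib3, read 1.55, 2.36 and 1.76 (Trib1) and 1.15, 1.46 and 1.25 (Trib2) in KI, against 1.38, 1.35 and 1.00 (Trib1) and 0.78, 0.34 and 0.85 (Trib2) in WT. They differed by 0.65 (SE 0.23) and 0.63 (SE 0.17), with 3 of 3 KI arrays above every WT array, while the other kept probe of each differed by 0.44 (Trib1) and -0.14 (Trib2), with overlapping arrays. The genes of the membrane-bound factors Creb3 and Creb3l3, which are cut like ATF6, lay wholly below WT, by -0.40 (SE 0.11) and -0.63 (SE 0.11). Their relatives Creb3l1 and Creb3l2 went the other way, by 0.07 (SE 0.09) and 0.17 (SE 0.15). Creb3l1 lay wholly above WT, and Creb3l2 overlapped. Of ATF4 targets, Gpt2 (0.54, SE 0.14), Cth (0.50, SE 0.14) and Aldh1l2 (0.40, SE 0.15) lay wholly above WT. The other kept probe of Cth differed by 0.30, with overlapping arrays. None of these genes passed limma's threshold.

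The genes whose pattern over the 6 arrays was most like that of Ddit3 were Rnf145 and Ap5m1 (Pearson r = 0.997 each), Ppp1r8 and Dido1 (0.996 each) and Trio (0.994). Of 20974 genes, 706 had an r above 0.9, 228 above 0.95 and 51 above 0.98. Among the 10 genes, Xbp1 had an r of 0.86 with Ddit3, Atf6 of 0.74, Atf3 of 0.58 and Atf4 of 0.52. Ern1 had an r of -0.95 and Eif2ak3 of -0.82. For Ppp1r15a, Chac1 and Trib3 the r was 0.21, -0.14 and -0.20. Arrays, scaling and slides are shared by all of them.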
